A study of Ovis aries with 30 samples.

Results

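Gene expression was compared in sheep lung between fetal day 90 and 10 weeks after birth. The comparison took the 5 arrays of fetal day 90 lung and the 5 arrays of 10-week lung, 10 of the 30 arrays of the series, by tissue and age in the array titles. The other arrays hold kidney at both ages and lung and kidney of adults. All animals were sheep (Ovis aries) with no treatment, breed or sex in the labels, the tissue had been frozen, and its RNA was read on an Affymetrix bovine array. The fetal arrays are labelled 10A, 14A, 14B, 26B and 80B, and the 10-week arrays 7, 8, 10, 11 and 12. The design text speaks of biological replications. Fetal arrays 14A and 14B share a number, and the labels do not say whether this marks twins.

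At fetal day 90 the lung is a fluid-filled organ that is still extending its airway tree, in which epithelium and mesenchyme divide in response to one another through growth factors. After birth the gas exchange surface is made of flat alveolar type I cells and of type II cells that secrete surfactant, lies against a dense capillary bed, and is patrolled by macrophages and lymphocytes. The study's title puts the question as one of a growth-regulating genetic program whose pace differs among mammals, so genes of growth and cell division are of interest beside those of the lung itself.

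Values are log2 levels as deposited, and a change is the mean at 10 weeks minus the mean at fetal day 90, so that a change of 1 is a doubling in level. Each gene was represented by 1 probe set, the one with the highest mean over all 30 arrays, and 9155 genes were tested with limma, with p-values adjusted by the Benjamini-Hochberg method over all of them and a threshold of 0.05. Where each array is given, the order is 10A, 14A, 14B, 26B and 80B, then 7, 8, 10, 11 and 12, and SE is the standard error of the change. Counts of genes in a named list are called genes out of those measured, and are to be read against the share called among all genes. Probes made for cattle can read a sheep transcript weakly, so a level was compared between ages of 1 gene and never between genes.

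Fetal arrays 26B and 80B held transcripts of liver. Over the 61 measured genes of a liver list, the mean level in 26B was 10.60 and that in 80B 8.98. The remaining fetal arrays lay between 6.20 and 6.62 and the 10-week arrays between 5.98 and 6.26. HPD, a tyrosine-degrading liver enzyme, read 5.88, 5.45, 5.33, 12.68 and 9.95 in the fetal arrays and 6.11, 5.37, 5.45, 5.22 and 5.59 at 10 weeks. The liver enzyme TDO2, which opens the ring of tryptophan, read 4.51, 4.15, 3.80, 11.84 and 9.14 in the fetus and 3.86, 3.82, 4.72, 4.45 and 3.91 at 10 weeks. Both genes were picked because they were among the highest in 26B and 80B over the other fetal arrays, so that gap is a description of those arrays and not support for it. The other 3 fetal arrays lay within 1 log2 unit of the 10-week range. Red cell genes were raised in the same arrays, at a mean of 8.84 in 26B and 7.40 in 80B against 6.51 to 6.63 in the others. Several lung lists were lower in 26B. Genes of lung identity and branching had a mean of 8.55 there against 9.57 to 9.75 in 10A, 14A and 14B and 9.56 in 80B. In all, 190 genes were over 2 log2 units higher in the mean of 26B and 80B than in the mean of the other fetal arrays, and 1 gene was as much lower. Arrays 10A, 14A and 14B correlated with each other at 0.994 to 0.996 over all genes, whereas the lowest correlation within the fetal group was 0.906. The comparison was therefore repeated without 26B and 80B, with 3 fetal and 5 ten-week arrays, and is called the repeat. The lung markers SFTPC and AGER stood in every fetal array and every 10-week array at or above 9 on the log2 scale, with values given under the alveolar genes. Their levels were not compared with the kidney arrays, so this is no check of the tissue label. The lung transcription factor NKX2-1, the club cell protein SCGB1A1 and the cilia regulator FOXJ1 were not analysed here.

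**Figure D1:**
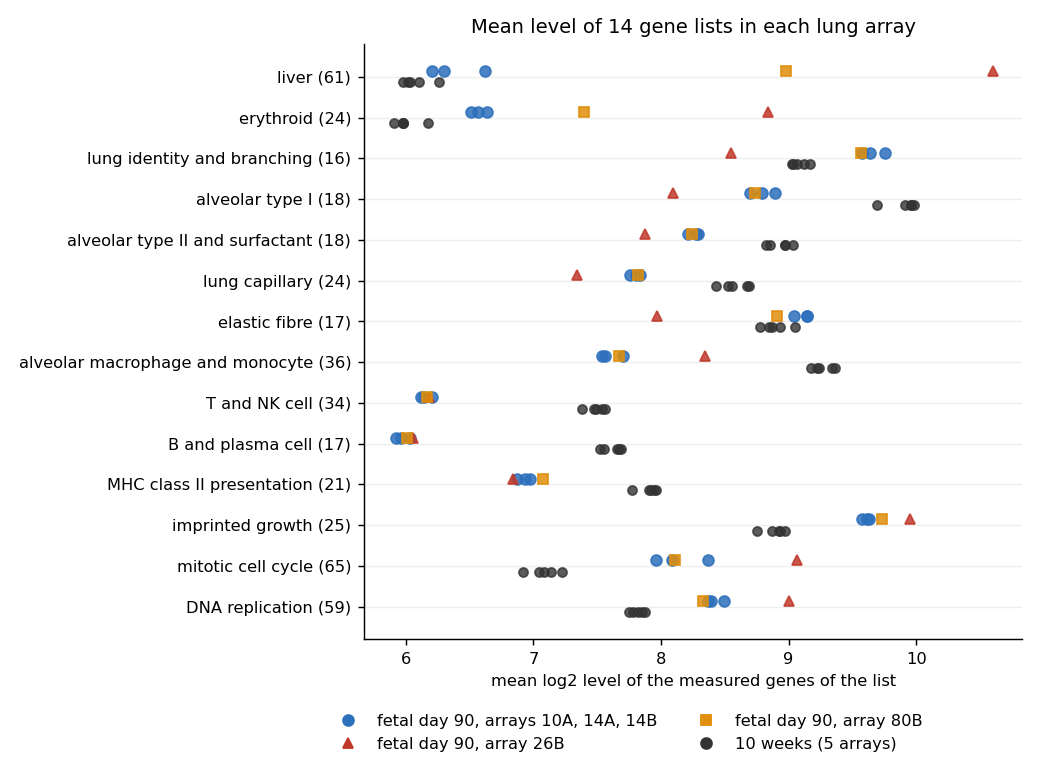
Mean log2 level of 14 gene lists in each lung array, with the number of measured genes in brackets; each point is 1 array, fetal arrays on the upper row and 10-week arrays on the lower row of a list. Fetal array 26B (triangles) is at 10.60 and 80B (squares) at 8.98 on the liver list, and for the T and NK, B, macrophage and both alveolar lists every 10-week array lies above every fetal one, while for the mitotic and replication lists every 10-week array lies below.

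Of the 9155 genes, 1421 were called higher at 10 weeks (15.5%) and 1399 lower (15.3%). Without 26B and 80B, 1574 were called higher (17.2%) and 1865 lower (20.4%). Both fits called 1266 genes higher and 1286 lower, and none was called in opposite directions (0 genes). The median change of all genes was -0.03 in either fit. The largest changes were more often rises: 221 genes were called higher by at least 2 log2 units and 88 lower. In 1044 genes every 10-week array lay above every fetal array, and in 874 every one lay below. In bulk tissue fewer cells of a type and less RNA per cell cannot be told apart, for any of these genes.

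**Figure D2:**
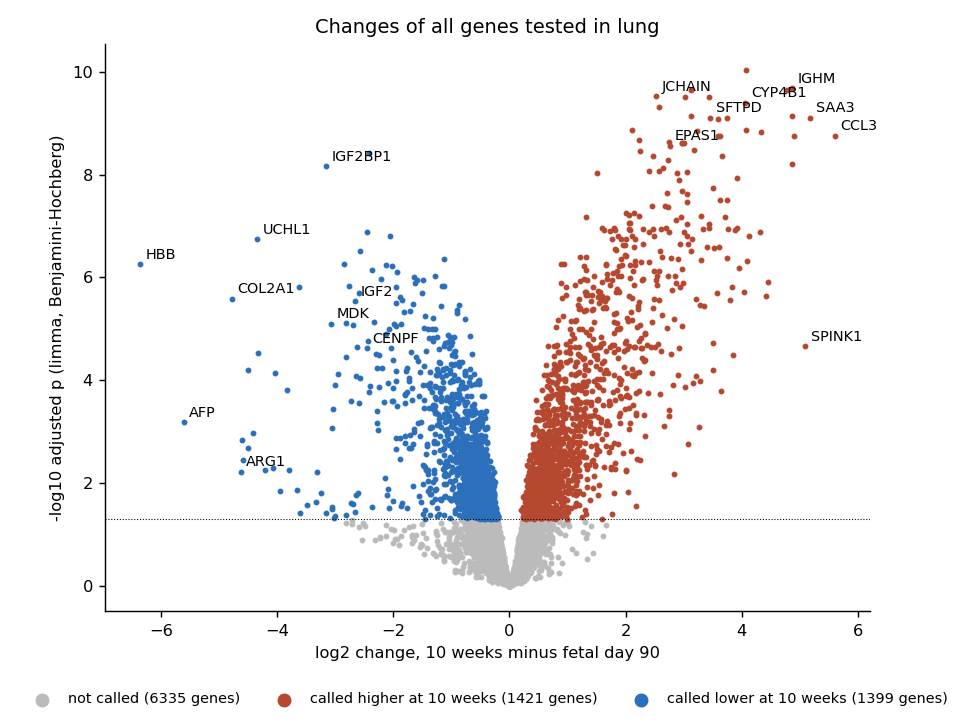
Log2 change of each of the 9155 genes (10 weeks minus fetal day 90, horizontal) against the -log10 of its adjusted p from limma (vertical), with the threshold dotted. The 1421 genes called higher lie to the right and the 1399 called lower to the left, from HBB at -6.36 to CCL3 at 5.61, and 221 against 88 of them are at least 2 log2 units from 0.

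Secreted defence proteins and metabolising enzymes were among the genes that rose most. CCL3, a chemokine of activated macrophages, read 5.73, 5.09, 5.01, 6.56 and 5.51 in the fetal arrays and 10.79, 11.56, 11.26, 11.25 and 11.06 at 10 weeks. It rose by 5.61 (SE 0.29, adjusted p = 1.75e-09), a 48.7-fold change, and the groups did not overlap. The other CCL3 probe sets had changes of 2.53 and 0.29, so the size depends on the probe set. The related chemokine CCL4 rose by 4.86, and GRO1, a neutrophil-attracting CXC chemokine, by 4.46. SAA3, an acute phase protein made outside the liver, rose by 5.18. LPO, the peroxidase of airway secretions, rose by 4.87 and was at 4.74 ± 0.13 (SD, n = 5) in the fetus. IGHM, the heavy chain of immunoglobulin M, rose by 4.87 and PIGR, which carries polymeric antibody across epithelium, by 4.08. Among enzymes, CYP2B6 rose by 4.78 and FMO1, a flavin monooxygenase, by 4.14, while HSD17B13, a lipid droplet dehydrogenase, rose by 4.34. UCP3, a mitochondrial carrier best known from muscle, rose by 4.91, from 4.49 ± 0.07 to 9.40 ± 0.55 (SD, n = 5). SPINK1, a trypsin inhibitor, rose by 5.10 with a wide spread at 10 weeks, 10.55, 9.51, 11.09, 8.37 and 9.35. The interferon-inducible DNA sensor IFI16 (4.09), the serine protease HTRA4 (4.32) and the reticulon RTN1 (4.42) complete the 15 largest rises that both fits called and in which the groups did not overlap. In the repeat their changes were 5.91 for CCL3, 3.84 for HTRA4 and 4.88 for RTN1.

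The largest falls divided into blood and liver transcripts and a few tissue genes. HBB, a beta globin, read 13.50, 13.48, 13.51, 13.33 and 13.57 in the fetal arrays and 7.26, 6.02, 6.63, 8.51 and 7.16 at 10 weeks, and fell by 6.36 (SE 0.55, adjusted p = 5.57e-07). Every fetal array lay above every 10-week array for it, and array 11 was the highest of the 10-week arrays. The fetal globin HBG fell by 3.63, ALAS2, the erythroid enzyme of haem synthesis, by 4.50, and AHSP, which stabilises alpha globin, by 4.42. Globin genes are close copies of one another, so these probe sets cannot say which globin was read. AFP, the fetal liver's plasma protein, read 8.67, 7.79, 7.18, 13.24 and 12.74 in the fetus and 4.48, 4.11, 4.13, 4.03 and 4.81 at 10 weeks. It fell by 5.61 with all arrays and by 3.57 without 26B and 80B (adjusted p = 0.000104). The urea cycle enzymes ARG1 and CPS1 changed by -4.63 and -4.61 with all arrays and by -2.15 and -2.63 in the repeat. The plasma proteins APOH, GC, FETUB, ITIH2 and SERPINA1 changed by -4.59, -4.51, -4.21, -3.95 and -3.84, and in the repeat by -2.62, -2.63, -2.13, -1.55 and -2.77. CATHL1, a cathelicidin of neutrophil granules, read 9.27, 8.48, 8.96, 12.12 and 11.20 in the fetus and 4.88, 5.68, 5.71, 5.72 and 6.32 at 10 weeks. The changes of these liver genes were smaller in size in the repeat, where each was also called lower. The largest falls were picked among genes called in both fits whose groups did not overlap. Neither the call in the repeat nor that gap is therefore support for the fall. The probe sets of ALB did not move alike. The one used here read 10.78, 10.95, 11.01, 10.78 and 10.55 in the fetus and 10.67, 10.84, 10.73, 10.69 and 10.58 at 10 weeks, a change of -0.11 (adjusted p = 0.413). Other ALB probe sets had changes of -3.67, -3.66 and 0.99, and the rest lay between -0.17 and 0.31. The direction for ALB therefore depends on the probe set.

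**Figure D3:**
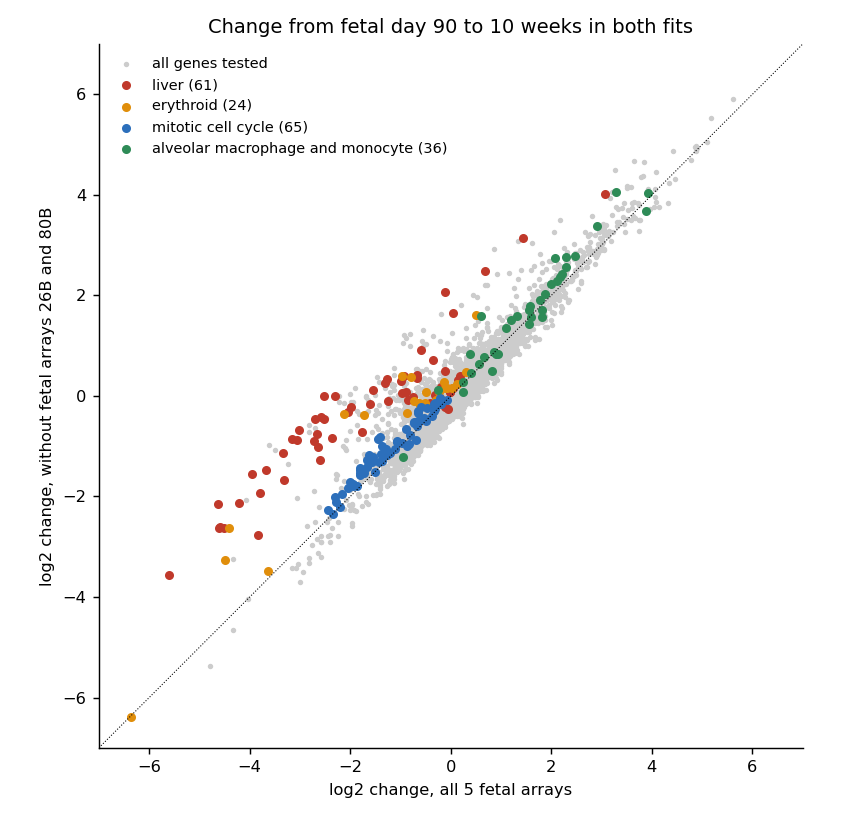
Log2 change of each gene with all 5 fetal arrays (horizontal) against its change without fetal arrays 26B and 80B (vertical); the dotted line marks equal changes. Liver genes lie above the line on the left, with AFP at -5.61 and -3.57, whereas CENPF of the mitotic genes is at -2.45 and -2.27. The fits share 8 of the 10 arrays compared, and both also used the adult lung arrays to estimate the spread.

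Surfactant genes and markers of the flat alveolar cells were higher at 10 weeks. In the list of type II cell and surfactant genes, 10 of 18 were called higher (55.6%) and 1 lower, with a median change of 0.57. The count was 10 and 1 in the repeat. SFTPD, the surfactant collectin that binds microbes, read 6.44, 6.75, 6.96, 6.03 and 6.41 in the fetus and 9.63, 9.97, 9.97, 9.95 and 10.39 at 10 weeks. It rose by 3.46 (SE 0.16, adjusted p = 7.81e-10), and no fetal array came within 2 log2 units of a 10-week one. SFTPC, a hydrophobic surfactant protein, read 11.59, 11.51, 11.37, 9.30 and 10.98 in the fetus and 12.40, 12.40, 12.47, 12.10 and 12.20 at 10 weeks. It rose by 1.36 (adjusted p = 0.00457) and by 0.82 in the repeat, with every 10-week array above every fetal one. SFTPB, which is needed for the surfactant film, rose by 2.01, SFTPA1 by 1.67 and ABCA3, the lipid pump of lamellar bodies, by 0.68. Array 26B was the lowest fetal array for SFTPB, SFTPC and SFTPD. The gene of this list that fell was DLK1, an imprinted ligand of immature cells that is described with the growth genes.

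Of 18 type I cell genes measured, 14 were called higher (77.8%) and none lower (0 of 18), with a median change of 1.20 (1.01 in the repeat, with 13 called higher). AGER, the receptor that marks type I cells, read 10.90, 11.05, 11.03, 9.08 and 11.10 in the fetus and 11.99, 12.29, 12.02, 12.17 and 12.19 at 10 weeks, and rose by 1.5 (SE 0.31, adjusted p = 0.00184). The 10-week arrays were all above the fetal ones, and 26B was the lowest fetal array by a wide margin. AQP5, the water channel of the type I membrane, read 5.76, 5.99, 6.21, 5.87 and 5.77 in the fetus and 7.78, 7.71, 7.49, 7.99 and 7.33 at 10 weeks, a rise of 1.74. CAV2, of the caveolar coat, rose by 1.80, COL4A3, a chain of the alveolar basement membrane, by 2.34 and SPOCK2, a matrix proteoglycan, by 1.67. CYP4B1, a lung cytochrome P450 that stands in this list and in that of secretory airway cells, rose by 4.07 (adjusted p = 3.95e-10). VEGFA, made by type I cells for the capillaries, read 12.18 ± 0.22 in the fetus and 12.20 ± 0.15 at 10 weeks (SD, n = 5; adjusted p = 0.902).

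Fluid in the lung is secreted through chloride channels before birth and removed through sodium channels afterwards. In a list of ion and water transport genes, 12 of 25 were called higher (48%) and 2 lower. The beta and gamma subunits of the epithelial sodium channel both rose. SCNN1G read 6.00, 6.41, 6.53, 5.35 and 5.98 in the fetus and 8.24, 8.08, 8.33, 7.89 and 8.09 at 10 weeks, a rise of 2.07 (adjusted p = 5.63e-07). SCNN1B rose by 1.64, from 6.46 ± 0.43 to 8.10 ± 0.08 (SD, n = 5). AQP1, the water channel of capillary endothelium, rose by 2.46 (adjusted p = 4.10e-08). CFTR, the chloride channel, read 10.06, 10.23, 10.10, 10.68 and 10.45 in the fetus and 10.84, 10.44, 10.70, 10.33 and 9.83 at 10 weeks, and its groups overlapped (change 0.12, SE 0.18, adjusted p = 0.642). Another CFTR probe set had a change of -0.73 (SE 0.21), so the result for CFTR depends on the probe set. The genes called lower were SLC9A3, a sodium-proton exchanger (-0.35, not called without fetal array 10A, 14A, 14B or 80B or without 10-week array 10, 11 or 12), and HSD11B2, which inactivates cortisol (-0.92). Genes named here and below because few of their list were called were chosen after their values were seen. The count of lower genes was 4 without array 26B alone and 1 without any other fetal array or without 10-week array 10 or 11.

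Airway epithelium genes changed in both directions. Among secretory airway genes, 5 of 11 were called higher (45.5%), led by PIGR, CYP4B1 and the bactericidal protein BPIFB1, which rose by 2.74. BPIFB1 read 6.65, 6.78, 6.40, 6.43 and 6.44 in the fetus and 9.72, 10.07, 9.67, 8.55 and 8.40 at 10 weeks. The related BPIFA1 rose by 1.32 (not called without fetal array 10A, 14A, 14B or 80B or without 10-week array 7, 8 or 10) and ALDH1A1, which makes retinoic acid, by 1.14, while 1 gene of the list was called lower when array 26B alone was left out. Of 12 genes of ciliated cells, 5 were called higher and 1 lower. TPPP3, a microtubule protein of cilia, rose by 1.91, ROPN1L by 1.51 and the dynein light chain DYNLRB2 by 1.09, and 26B was the lowest fetal array for each of them. CCDC39, which sets the length of axonemal repeats, rose by 1.27 and RFX2, a transcription factor of ciliated cells, by 0.99. The gene called lower was the tubulin TUBA1A (-0.50), and 2 were lower without array 80B. In the joint list of neuroendocrine and basal cell genes, 5 of 17 were called lower (29.4%) and 1 higher. Its median change was -0.42, and -0.13 in the repeat, and 7 of its genes had a positive change. The members named below are neuroendocrine or neuronal genes, so no fall of basal cell genes is shown. UCHL1, a ubiquitin hydrolase of neurons and neuroendocrine cells, read 11.74, 11.67, 11.65, 10.13 and 11.63 in the fetus and 6.90, 7.16, 7.03, 7.17 and 6.85 at 10 weeks. It fell by 4.34 (SE 0.34, adjusted p = 1.82e-07). The prohormone chaperone SCG5 fell by 1.96, and the granule proteins CHGA and CHGB went apart, CHGA at -0.55 and CHGB at 0.66. The vesicle fusion protein SNAP25 fell by 2.85 and the adhesion molecule NCAM1 by 1.13 (not called without fetal array 10A or 14A). NRCAM, a neuronal adhesion molecule outside the list, read 8.85, 8.89, 8.53, 8.65 and 8.80 in the fetus and 5.59, 3.85, 4.09, 4.57 and 5.45 at 10 weeks and fell by 4.03.

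In the wider list of neuronal and neural crest genes, 6 of 35 were called higher (17.1%) and 8 lower (22.9%). The shares of all genes were 15.5% and 15.3%. When array 26B alone was left out, 14 genes of the list were called lower. MARCKSL1, a substrate of protein kinase C in growing neurites, fell by 2.58. RTN1 of the same list rose by 4.42.

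Genes of the endothelium were higher at 10 weeks. Of 26 general endothelial genes, 14 were called higher (53.8%) and 1 lower. Of 24 lung capillary genes, 12 were called higher (50%) and none lower (0 of 24; 1 in the repeat), with medians of 0.54 and 0.50. PECAM1, the junction molecule of all endothelium, read 12.26, 12.28, 12.49, 11.57 and 12.35 in the fetus and 12.89, 12.75, 13.02, 12.81 and 12.59 at 10 weeks, a rise of 0.62 (adjusted p = 0.00403). FABP4, a fatty acid binding protein of capillaries and alveolar macrophages, read 5.30, 4.99, 5.49, 6.07 and 4.97 in the fetus and 10.04, 9.43, 9.71, 8.57 and 8.72 at 10 weeks and rose by 3.93 (SE 0.29, adjusted p = 1.09e-07). TMEM100, an endothelial target of BMP9 signals, rose by 2.58 and LPL, the lipoprotein lipase of the capillary wall, by 2.01. THBD, the thrombin receptor on endothelium, rose by 1.41, and LYVE1, the hyaluronan receptor of lymphatic vessels, by 1.66. LYVE1 read 9.88, 9.10, 9.13, 11.34 and 10.11 in the fetus, highest in 26B. VCAM1, which holds leukocytes on vessels, was the endothelial gene called lower, at -1.32 (adjusted p = 1.75e-05), with all 10-week arrays under all fetal ones. A second endothelial gene was called lower without array 26B or without 10-week array 8, and 1 capillary gene without array 26B.

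Genes of vascular tone and oxygen sensing changed in single members: 11 of 33 were called higher (33.3%) and 3 lower, or 6 lower without array 26B alone. EPAS1, the oxygen-regulated factor HIF-2 alpha, read 8.65, 8.51, 8.46, 9.10 and 8.65 in the fetus and 11.19, 11.62, 11.73, 11.14 and 11.49 at 10 weeks and rose by 2.76 (SE 0.15, adjusted p = 2.74e-09). EDN1, the vasoconstrictor endothelin 1, read 10.27, 9.73, 9.63, 7.24 and 10.15 in the fetus and 12.30, 12.01, 11.67, 11.15 and 11.58 at 10 weeks, a rise of 2.34, and 1.87 in the repeat. PTGS2, the inducible cyclooxygenase, rose by 2.90 and the prostaglandin receptor PTGER4 by 2.4. The other PTGS2 probe sets had changes of 4.67 and 0.33. In EPAS1, EDN1, PTGS2 and PTGER4 the groups did not overlap. The genes called lower were the angiotensin receptors AGTR1 (-0.81) and AGTR2 (-0.65) and the peptide endothelin 3, EDN3 (-1.06).

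Immune genes were higher at 10 weeks. In the macrophage and monocyte list 31 of 36 were called higher (86.1%) and 1 lower, with a median change of 1.57. In the repeat 33 were called higher, and the gene called lower was VCAN, a matrix proteoglycan also made by fibroblasts (-0.95). OLR1, a scavenger receptor for oxidised lipoprotein, read 5.22, 4.62, 5.42, 4.32 and 4.83 in the fetus and 9.44, 8.70, 9.25, 8.83 and 7.63 at 10 weeks and rose by 3.89 (adjusted p = 1.18e-07). GPNMB, a glycoprotein of lipid-laden macrophages, rose by 3.29, and the complement chains C1QA and C1QB by 2.91 and 2.46. CSF1R, the receptor that macrophages depend on, was named after its values were seen, and rose by 2.17 (adjusted p = 4.81e-07). Array 26B lay above the other fetal arrays on this list, at 8.34 against 7.54 to 7.70, and the 10-week arrays lay at 9.17 to 9.36. Genes of granulocytes and mast cells were called higher in 7 of 18, among them the neutrophil chemokine receptor CXCR1 at 3.35 and the leukotriene cofactor ALOX5AP at 2.87. MMP9, a neutrophil gelatinase, was the one called lower (-0.67, not called without fetal array 10A or 80B or without 10-week array 7 or 10), and no gene of the list was lower (0 genes) without fetal array 10A or 80B or without 10-week array 7 or 10.

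Lymphocyte genes were lower before birth and varied little among the fetal arrays as a list. The mean of 34 T and NK cell genes lay between 6.12 and 6.20 in the 5 fetal arrays and between 7.38 and 7.56 at 10 weeks, and 23 were called higher (67.6%). ICOS, the costimulator of activated T cells, read 6.95, 6.90, 6.72, 5.87 and 6.65 in the fetus and 10.12, 10.48, 10.44, 10.30 and 10.48 at 10 weeks and rose by 3.75 (SE 0.17, adjusted p = 7.81e-10). CD8A, the coreceptor of cytotoxic T cells, rose by 3.22 and IL2RG, the common gamma chain of cytokine receptors, by 3.33. The T cell receptor chain CD3E, likewise named after its values were seen, rose by 2.93. No gene of the list was called lower (0 of 34), and 1 was in the repeat and without array 26B. For B and plasma cells, 14 of 17 were called higher (82.4%) and none lower (0 of 17). IGHM read 6.96, 6.85, 7.19, 7.46 and 7.03 in the fetus and 11.31, 12.33, 12.15, 11.79 and 12.28 at 10 weeks. JCHAIN, which joins IgM and IgA units, read 9.74, 9.75, 9.99, 9.98 and 9.81 in the fetus and 12.50, 12.42, 12.48, 12.46 and 12.04 at 10 weeks and rose by 2.53 (adjusted p = 2.96e-10), and the B cell receptor chain CD79A rose by 3.43. Array 12 was the lowest 10-week array for JCHAIN.

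Antigen presentation rose in both classes. Of 21 class II genes, 13 were called higher (61.9%) and 1 lower, and of 18 class I genes 11 were called higher and 2 lower. The class I genes called lower were the chaperones CALR (-0.62, not called without 10-week array 7) and PDIA3 (-0.38), and only 1 of them was without 10-week array 7. BOLA-DRA and BOLA-DRB3, named after the cattle alleles, rose by 3.05 and 3.44, the peptide exchanger BOLA-DMA by 3.23 and BOLA-DQA2 by 2.86. BOLA-DQB1 was the class II gene called lower, at -3.04, but 2 other probe sets of it had changes of 2.06 and 0.87. Class II genes are close copies and differ between alleles and between sheep and cattle, so single members of this family are uncertain. A second class II gene was called lower without array 26B or without 10-week array 12, which made 2. PSMB9, a subunit of the immunoproteasome, rose by 2.88 and TAP1, the peptide transporter of class I loading, by 2.15.

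Genes of innate defence were higher as well. Of 60 chemokine and cytokine genes, 37 were called higher (61.7%) and 1 lower, and of 33 interferon-induced genes 21 were called higher (63.6%) and none lower (0 of 33), or 1 lower in the repeat and 2 without array 26B. The cytokine called lower was the thymic chemokine CCL25 (-0.43), and a second one was lower without array 26B. CXCL17, a mucosal chemokine, read 8.91, 8.67, 7.99, 6.54 and 8.15 in the fetus and 11.86, 11.91, 11.94, 11.64 and 11.62 at 10 weeks and rose by 3.74. CXCL8 rose by 3.53, IL1B by 3.50 and the interferon-induced IFI44 by 2.97. Array 26B was the highest fetal array for IL1B and for IFI44. In complement and innate defence 17 of 42 were called higher (40.5%) and 3 lower. C7, of the membrane attack complex, read 8.07, 8.09, 8.23, 8.61 and 8.29 in the fetus and 11.24, 11.53, 11.57, 11.34 and 11.27 at 10 weeks and rose by 3.13 (SE 0.12, adjusted p = 2.25e-10). CFD, the protease of the alternative pathway, rose by 3.79 and HP, the haemoglobin scavenger haptoglobin, by 3.08, and both were raised in 26B among the fetal arrays. HP rose by 4.01 in the repeat. The genes called lower were the cathelicidins CATHL1 (-4.34) and CATHL2 (-2.10) and the complement regulator CFI (-1.55).

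**Figure D4:**
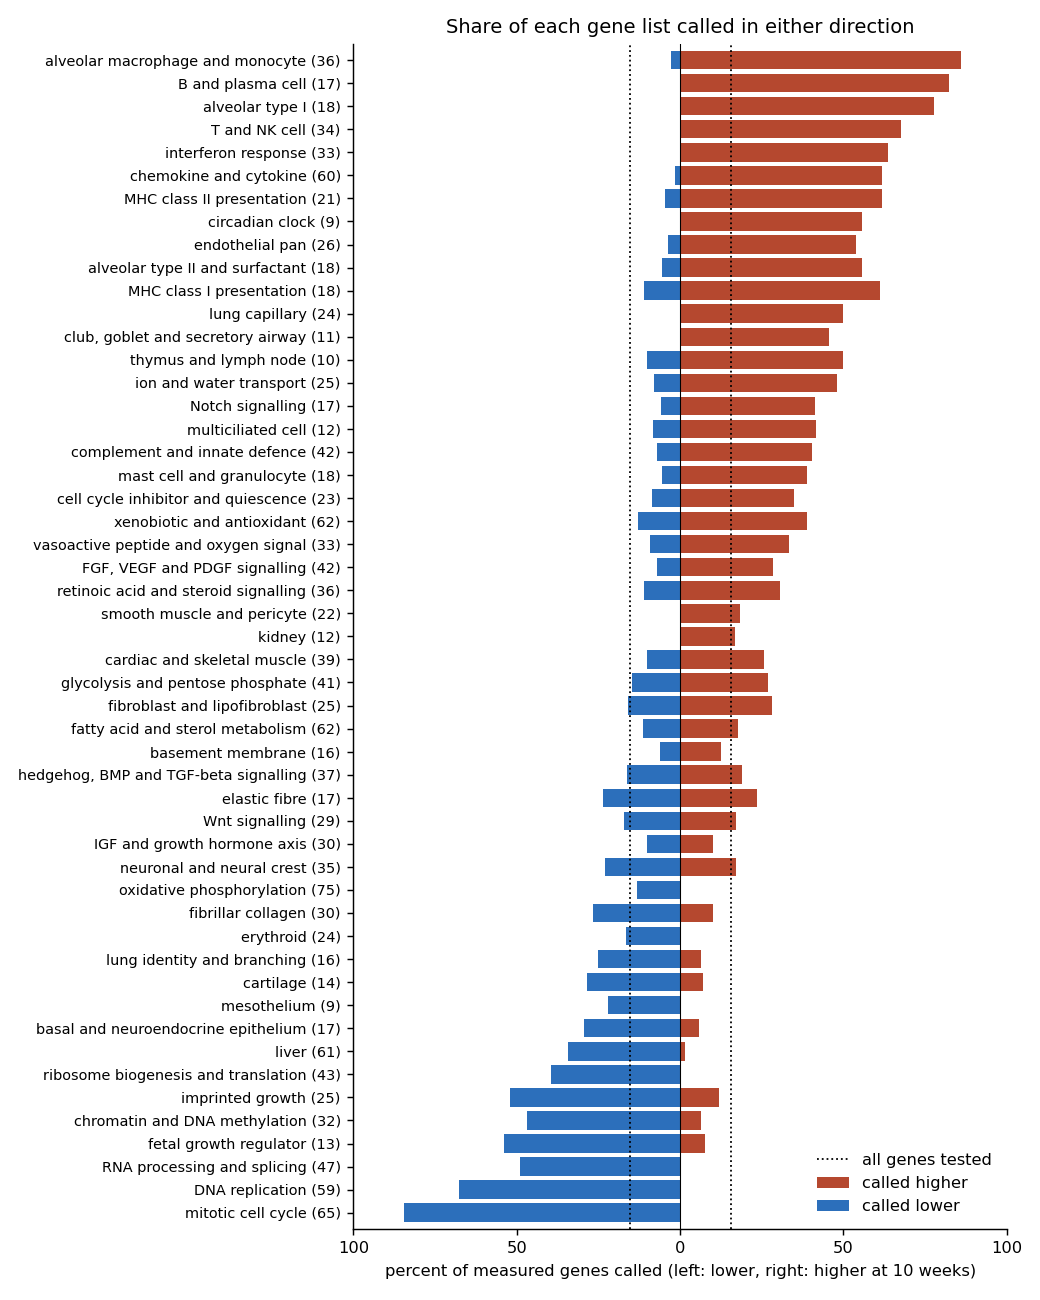
Share of the measured genes of each of 51 lists called higher (right) or lower (left) at 10 weeks, in percent, with the number of measured genes in brackets; dotted lines mark the share over all genes tested, 15.5% and 15.3%. The macrophage list has 86.1% called higher and the mitotic list 84.6% called lower.

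Genes of cell division fell at 10 weeks. Of 65 mitotic genes, 55 were called lower (84.6%) and none higher (0 of 65), with a median change of -1.30. Their mean level was 9.07 in array 26B, 8.11 in 80B, 7.96 to 8.37 in the other fetal arrays and 6.92 to 7.22 at 10 weeks. Without 26B and 80B 52 were called lower and the median change was -1.07. CENPF, a kinetochore protein, read 9.33, 8.62, 9.02, 10.46 and 8.42 in the fetus and 7.01, 6.71, 6.39, 6.35 and 7.13 at 10 weeks and fell by 2.45 (SE 0.31, adjusted p = 2.41e-05). CDK1, the kinase that starts mitosis, read 9.57, 8.79, 8.55, 9.95 and 8.99 in the fetus and 7.74, 7.64, 7.20, 7.39 and 7.25 at 10 weeks, and fell by 1.72 (adjusted p = 0.000104). UBE2C, which marks cyclin B for destruction, fell by 2.30, the kinetochore proteins NDC80 and SKA1 by 2.28 and 2.34, and the motor KIF20A fell by 2.21. The proliferation marker MKI67 was not analysed here.

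In DNA replication 40 of 59 genes were called lower (67.8%) and none higher (0 of 59), or 1 higher in the repeat and 1 without array 26B. TYMS, which makes thymidylate, fell by 2.07, the helicase subunit MCM4 by 1.67 and cyclin E2 (CCNE2) by 1.47. UHRF1, which guides methylation to new DNA, read 9.86, 9.55, 9.46, 10.39 and 9.51 in the fetus and 8.02, 7.80, 7.70, 7.39 and 7.86 at 10 weeks and fell by 2.0 (adjusted p = 8.02e-06). Of 32 chromatin genes, 15 were called lower (46.9%) and 2 higher. The DNA methyltransferases DNMT1 and DNMT3A fell by 1.08 and 1.21, and the deacetylase HDAC2 by 1.14. EZH1, a second Polycomb methyltransferase, and the lamin LMNA were the ones called higher, at 0.70 and 0.65. EZH2, the methyltransferase of the Polycomb complex, read 11.95, 11.67, 11.71, 12.42 and 11.46 in the fetus and 10.30, 10.31, 10.30, 10.47 and 11.23 at 10 weeks and fell by 1.32, with array 12 the highest of the 10-week arrays.

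Of 23 genes of cell cycle inhibition and quiescence, 8 were called higher (34.8%, against 15.5% of all genes). Only 2 were called lower (8.7%, under the 15.3% of all genes). CDKN1A, the p21 inhibitor, read 5.94, 5.95, 5.93, 7.28 and 6.25 in the fetus and 8.07, 8.65, 8.82, 9.17 and 7.81 at 10 weeks and rose by 2.23 (SE 0.31, adjusted p = 6.84e-05). The transcription factors KLF4 and CEBPD, which slow division, rose by 1.73 and 1.28. The inhibitors called lower were CDKN2C (-0.94) and CDKN1C (-0.53). Genes of RNA processing were called lower in 23 of 47 (48.9%) and those of ribosome making and translation in 17 of 43 (39.5%), with none higher in either list (0 genes). The sizes were small, with medians of -0.28 and -0.26. HNRNPL, a splicing regulator, fell by 0.93 and FBL, the methylase of ribosomal RNA, by 0.75.

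Imprinted genes, of which a parent's sex decides the active copy and several of which set fetal growth, fell more often than they rose. Of 25 measured, 13 were called lower (52%) and 3 higher, the same counts as in the repeat (13 and 3). The genes called higher were the potassium channel KCNQ1 (0.39, not called without fetal array 10A or without 10-week array 8), NAP1L5 (0.46) and the matrix proteoglycan DCN (0.65, not called without fetal array 10A or 14B or without 10-week array 7, 8, 10 or 11). With array 10A or 10-week array 8 left out, 1 gene of the list was called higher. IGF2, the fetal insulin-like growth factor, read 12.27, 12.43, 12.35, 11.66 and 12.12 in the fetus and 9.63, 9.53, 8.78, 9.89 and 9.69 at 10 weeks and fell by 2.66 (SE 0.27, adjusted p = 2.86e-06). The groups were more than 1 log2 unit apart, and the IGF2 probe sets did not move alike. A second IGF2 probe set had a change of -1.56, and 2 others changes of 0.22 and -0.16. DLK1 read 12.28, 12.62, 12.37, 13.07 and 12.72 in the fetus and 10.00, 10.14, 8.75, 10.01 and 10.69 at 10 weeks and fell by 2.70, and MEG3, the noncoding RNA of the same imprinted domain, fell by 2.37. NNAT, a membrane proteolipid of developing tissue, fell by 2.72 with 26B at the top, 11.15, 11.15, 11.02, 14.01 and 12.37 against 9.11, 9.31, 8.99, 9.20 and 9.50, and by 1.89 in the repeat. MEST, a hydrolase-like protein of mesoderm, fell by 1.89, PEG3, a zinc finger protein, by 2.28 and PLAGL1, a zinc finger regulator of the imprinted network, by 0.84. The growth inhibitor CDKN1C fell by 0.53, and IGF2R, which clears IGF2, by 0.61.

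Fetal growth regulators fell as well, 7 of 13 (53.8%), and 1 rose, the stress-response gene TP53INP1 at 0.48 (not called without fetal array 10A or 14A or without 10-week array 8). IGF2BP1, an RNA-binding protein of fetal tissue that binds IGF2 mRNA, read 8.24, 8.17, 8.20, 7.74 and 7.32 in the fetus and 4.72, 4.76, 4.48, 4.73 and 5.23 at 10 weeks and fell by 3.15 (SE 0.18, adjusted p = 6.87e-09). MDK, the growth factor midkine, read 12.19, 12.20, 12.36, 10.55 and 12.26 in the fetus and 8.47, 8.85, 8.16, 8.79 and 9.92 at 10 weeks and fell by 3.07 (adjusted p = 8.02e-06). IGF2BP3, related to IGF2BP1, fell by 2.02, the retinoic acid binding protein CRABP2 by 1.40 and GPC3, a glypican that restrains growth, by 0.69. HMGA2 and MYCN were not analysed here. In the postnatal growth hormone axis few genes moved: 3 of 30 were called higher (10%) and 3 lower, or 5 lower without array 26B or without array 80B. The genes called higher were SGK1, a kinase downstream of insulin signals (1.22), PIK3CA (0.72) and IGFBP7 (0.45), and those called lower were IGF2, IGF2R and CISH, an inhibitor of growth hormone signalling (-0.50, not called without fetal array 14B or without 10-week array 7 or 12). IGF1, the postnatal growth factor, read 7.47, 7.47, 7.45, 7.67 and 7.72 in the fetus and 7.57, 7.73, 7.70, 7.35 and 7.66 at 10 weeks, a change of 0.05 (SE 0.11, adjusted p = 0.784). Another IGF1 probe set had a change of -1.77, so the direction for IGF1 depends on the probe set. The receptor IGF1R had a change of -0.13 (adjusted p = 0.44) and the growth hormone receptor GHR one of -0.39 (adjusted p = 0.371). The carrier IGFBP3 read 9.56, 9.33, 9.83, 11.83 and 10.54 in the fetus and 8.90, 9.87, 8.68, 9.19 and 9.56 at 10 weeks, with 26B highest (change -0.97, adjusted p = 0.0904, and in the repeat -0.33 with an adjusted p of 0.432).

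The same ages were compared in kidney for 16 genes of growth, and the difference between the organs was tested as an interaction over all 30 arrays in limma, adjusted over all genes. Of the fetal arrays 3 and of the 10-week arrays 4 carry a number that is found in both organs; the labels do not say whether these are the same animals, and the test took all arrays as independent. The change differed between the organs in 6 of the 16 genes. The share of all genes called by this test is not given here, so the count does not set growth genes apart. MEST fell by 1.89 in lung and by 4.0 in kidney, a difference of 2.11 (SE 0.27, adjusted p = 6.20e-07). CDKN1C fell by 0.53 in lung and fell by 1.63 in kidney (adjusted p of the difference = 4.25e-07), and GPC3 by 0.69 and 1.60 (adjusted p = 0.00679). DLK1 and IGF2BP1 fell further in lung: DLK1 by 2.70 against 0.80 (adjusted p = 0.000114) and IGF2BP1 by 3.15 against 1.51 (adjusted p = 1.94e-06). IGFBP3 had changes of -0.97 in lung, not called, and 0.96 in kidney (adjusted p of the difference = 0.00151). For IGF2, with changes of -2.66 and -2.29, the difference of -0.37 (SE 0.42) did not pass (adjusted p = 0.583), nor did it for PEG3 at -0.10 (SE 0.46). The difference for PLAGL1 was 0.51 with an adjusted p of 0.0785, and an adjusted p of 0.0218 without lung arrays 26B and 80B. The 6 called differences were also called in that repeat.

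**Figure D5:**
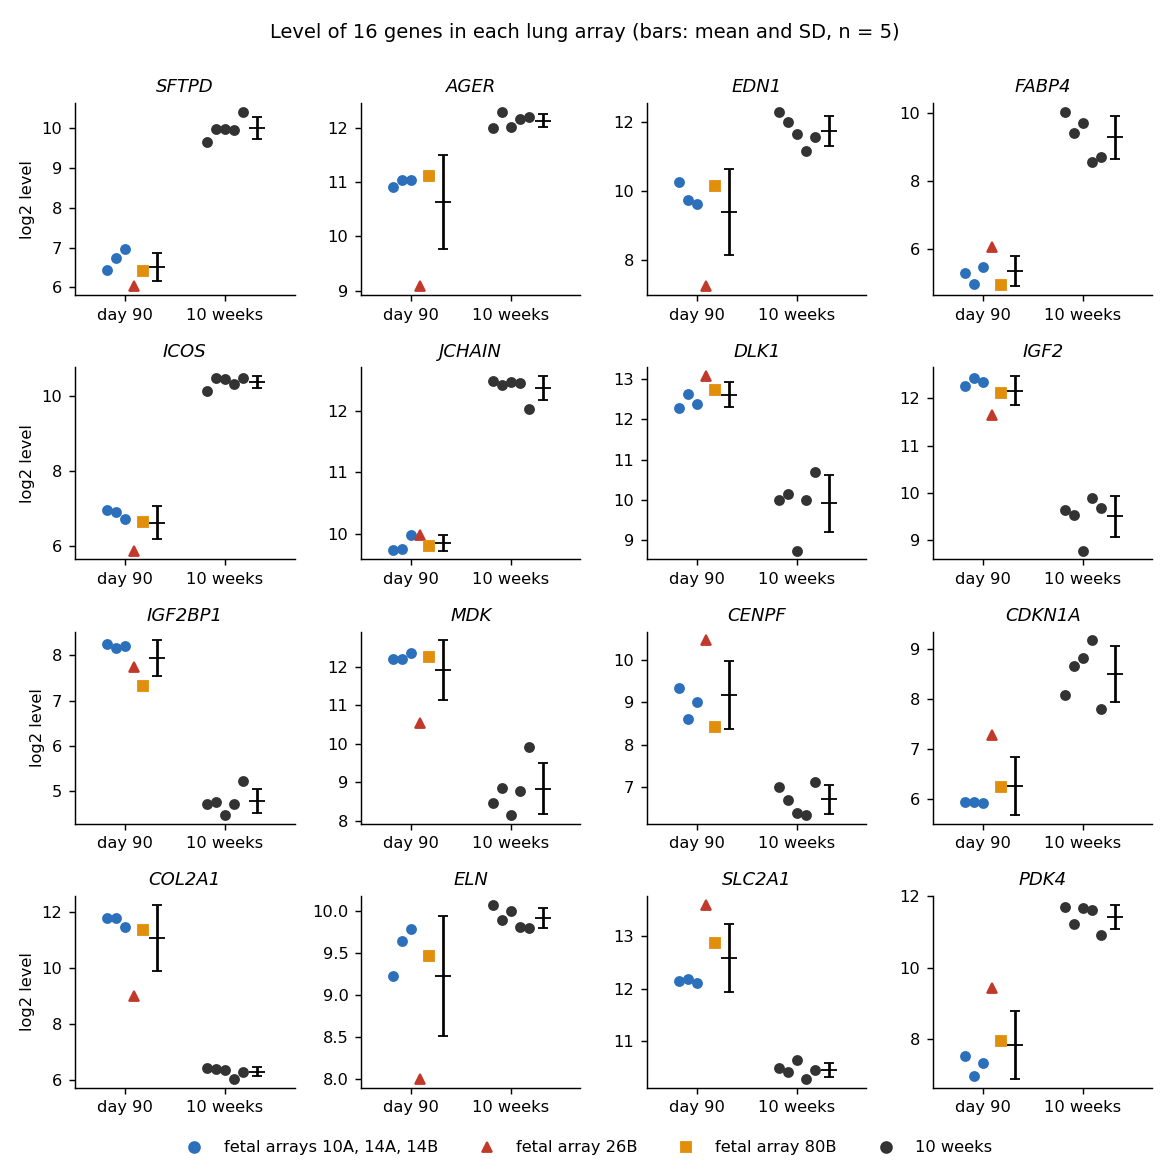
Log2 level of 16 genes in each lung array, fetal day 90 on the left and 10 weeks on the right of each panel; bars give the mean and SD of 5 arrays, and each panel has its own vertical axis that does not start at 0. The groups overlap in none of the 16 genes drawn and come closest in ELN, and array 26B (triangles) is the lowest fetal point for AGER, EDN1, MDK and COL2A1 and the highest for CENPF, SLC2A1 and PDK4.

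Genes of the matrix changed in both directions. The elastic fibre list had 4 of 17 called higher and 4 lower (23.5% each, against 15.5% and 15.3% of all genes). The higher count was 2 when fetal array 80B or 10-week array 8, 10 or 11 was left out. Elastin itself, ELN, the recoil protein of the alveolar wall, read 9.22, 9.64, 9.78, 7.99 and 9.46 in the fetus and 10.07, 9.89, 9.99, 9.80 and 9.80 at 10 weeks (change 0.69, SE 0.28, adjusted p = 0.0785). EFEMP2, which lays down elastin on fibrils, fell by 1.19, and LTBP2, a fibrillin binder, rose by 1.14. MFAP4 (0.90, not called without fetal array 10A, 26B or 80B or without 10-week array 8, 10, 11 or 12), EFEMP1 (0.88, not called without fetal array 80B or without 10-week array 7, 8, 10 or 11) and EMILIN2 (0.67) were the others called higher, and FBLN1 (-1.01, not called without fetal array 10A, 14A or 14B or without 10-week array 7), MFAP2 (-0.74) and EMILIN1 (-0.72) the others called lower. Among 30 genes of fibrillar collagen and its processing, 8 were called lower (26.7%) and 3 higher. COL1A1, the main chain of type I collagen, read 13.25 ± 0.45 in the fetus, with 26B lowest, and 12.94 ± 0.19 at 10 weeks (SD, n = 5; change -0.31, adjusted p = 0.249), and without 26B and 80B it was called lower at -0.54 (adjusted p = 0.0127). FKBP10, a collagen chaperone, fell by 1.42, whereas COL5A3 rose by 1.92, COL12A1 by 1.0 and the prolyl hydroxylase P3H2 by 1.18. The airway wall holds cartilage. COL2A1, the collagen of cartilage, read 11.80, 11.78, 11.46, 8.99 and 11.37 in the fetus and 6.43, 6.37, 6.36, 6.03 and 6.29 at 10 weeks and fell by 4.78 (SE 0.49, adjusted p = 2.58e-06). The other COL2A1 probe sets had lower fetal means (5.68, 6.50 and 6.33) and changes of 0.04, 0.12 and -0.13. Its partner COL11A1 fell by 2.44, with changes of -0.80 to 0.23 in its other probe sets. Chondromodulin, CNMD, fell by 2.82. The cartilage list had 4 of 14 genes called lower, MIA the remaining one (-0.74), and 1 higher, PRELP (0.72). COL4A1, of all basement membranes, read 11.65 ± 0.34 in the fetus and 11.65 ± 0.17 at 10 weeks (SD, n = 5; adjusted p = 0.999). In its list 2 of 16 were called higher (12.5%) and 1 lower (6.25%), both under the shares of all genes (15.5% and 15.3%). Without array 26B alone 4 were lower. The ones called higher were COL4A3 (2.34) and its partner COL4A4 (0.99), and FREM1 was lower (-1.12).

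Fibroblast genes were divided, with 7 of 25 called higher (28%) and 4 lower (16%), against 15.5% and 15.3% of all genes. Without array 26B alone 9 were lower. DPT, a matrix protein of resting fibroblasts, rose by 2.08 and PPARG, the lipid regulator of lipofibroblasts and alveolar macrophages, by 1.81. MEOX2, a mesodermal transcription factor, read 10.76, 10.85, 10.83, 8.72 and 11.09 in the fetus and 9.39, 9.25, 8.97, 8.87 and 8.74 at 10 weeks and fell by 1.41. Array 26B was as low as the 10-week arrays for MEOX2, and the other fetal arrays were above all of them. FGFR4, GPC3 and FBLN1 were the other fibroblast genes called lower. Smooth muscle genes gave 4 of 22 called higher (18.2%), near the share of all genes (15.5%). None of them was called lower (0 of 22), with 2 lower in the repeat and 2 without array 26B alone. PLN, the regulator of the calcium pump, rose by 1.48, the filament protein DES by 0.94, the adhesion molecule MCAM by 0.89 and the pericyte receptor PDGFRB by 0.26 (not called without fetal array 10A or 26B or without 10-week array 7, 8 or 10). MYH11, the smooth muscle myosin, read 9.80, 9.98, 10.01, 8.50 and 9.85 in the fetus and 9.62, 9.62, 9.75, 9.82 and 9.31 at 10 weeks (change -0.0033, adjusted p = 0.992). Embryonic myosin MYH3 and fast troponin TNNT3 fell by 1.49 and 1.34 in a muscle list of 39 genes with 10 higher and 4 lower, and MYL4 (-0.72) and MYBPC1 (-0.81) were the others called lower.

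Some signals of branching growth were lower at 10 weeks. With all arrays, the hedgehog and Wnt lists below were called near the share of all genes (15.5% higher, 15.3% lower). In the lung identity and branching list 4 of 16 were called lower (25%) and 1 higher, 9 lower in the repeat and 11 without array 26B alone, which had the lowest level of the list. BMP4, a distal tip ligand, fell by 0.88 and FGFR2, the receptor of FGF10 in the bud epithelium, by 0.79. PTCH1, the hedgehog receptor, fell by 0.68 (not called without fetal array 10A, 14A or 80B or without 10-week array 7, 8, 10 or 11), and its ligand SHH was the gene called higher (0.32), but not without any single fetal array nor without 10-week array 7, 8 or 12. TGFB3 read 10.80, 10.92, 10.53, 8.52 and 10.59 in the fetus and 8.93, 9.02, 8.66, 8.88 and 8.51 at 10 weeks and fell by 1.47 (adjusted p = 0.00464), while TGFB1 rose by 1.30. In the hedgehog, BMP and TGF-beta list 7 of 37 were called higher (18.9%) and 6 lower (16.2%), or 10 lower without 26B. In the repeat 29.7% of it were called lower, against 20.4% of all genes. BMP5 fell by 2.0 and SMO, the transducer of hedgehog signals, by 1.32. Of 29 Wnt genes 5 were called higher and 5 lower (17.2% each), or 9 lower without 26B, and 31.0% were lower in the repeat. The secreted inhibitors SFRP2 and FRZB fell by 2.4 and 1.67, and the receptor FZD4 rose by 1.43. SFRP1 (-0.84), the receptor FZD3 (-1.32) and the R-spondin receptor LGR4 (-0.61, not called without fetal array 80B or without 10-week array 8, 10, 11 or 12) were the others called lower. TCF7 (1.30), a factor also of T cells, RSPO1 (1.12), DKK3 (0.79) and FZD10 (0.65, not called without fetal array 14A or 14B or without 10-week array 10, 11 or 12) were the others called higher. FRZB read 7.32, 7.73, 7.11, 10.42 and 8.40 in the fetal arrays, with 26B highest, and changed by -0.86 in the repeat.

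Some vascular growth signals rose. Of 42 FGF, VEGF and PDGF genes, 12 were called higher (28.6%) and 3 lower, or 9 lower without array 26B alone. ANGPT2, the vessel remodelling ligand, read 8.21, 8.27, 8.31, 6.84 and 8.22 in the fetus and 10.24, 9.87, 9.85, 9.59 and 9.69 at 10 weeks and rose by 1.88 (adjusted p = 2.45e-05). FGFR4 fell by 1.18 and the neuregulin receptor ERBB3 by 0.51. In the Notch list 7 of 17 were called higher (41.2%) and 1 lower, led by MFNG, which modifies Notch receptors, at 1.84 and the endothelial ligand DLL4 at 1.36, with DLK1 as the lower one. Retinoic acid and steroid genes gave 11 of 36 higher and 4 lower, or 7 lower without 26B, and the orphan receptor NR4A1 rose by 2.54. RBP4, the plasma carrier of retinol made by liver, changed by -1.76 with all arrays and had a change of -0.72 in the repeat (adjusted p = 0.0158). RBP4 was not called without fetal array 80B or without 10-week array 7, 8, 10 or 12, and RDH5 fell by 0.53. Of 9 clock genes 5 were called higher and none lower (0 of 9), or 1 lower without array 26B. NR1D1, the clock repressor REV-ERB alpha, read 7.71, 7.95, 7.71, 8.11 and 7.44 in the fetus and 9.62, 10.04, 9.97, 10.00 and 10.47 at 10 weeks and rose by 2.24 (adjusted p = 6.23e-08), HLF rose by 1.95, BHLHE40 by 1.81, RORA by 0.79 (another probe set had a change of -0.75) and PER2 by 0.64. The labels give no hour of tissue collection.

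Genes of fuel use changed in single steps. Of 75 genes of oxidative phosphorylation, 65 were not called, 10 were lower (13.3%, near the share of all genes) and none higher (0 genes; 1 in the repeat and 2 without array 26B). The largest fall among them was that of UQCRQ, a subunit of complex III, by 0.80. In glycolysis 11 of 41 were called higher (26.8%) and 6 lower (14.6%), the latter near the share of all genes. SLC2A1, the glucose transporter of fetal tissue, read 12.14, 12.19, 12.10, 13.60 and 12.87 in the fetus and 10.49, 10.41, 10.65, 10.28 and 10.45 at 10 weeks and fell by 2.12 (SE 0.25, adjusted p = 1.26e-05). PDK4, the kinase that spares glucose by shutting pyruvate dehydrogenase, read 7.54, 6.97, 7.32, 9.44 and 7.95 in the fetus and 11.71, 11.23, 11.66, 11.62 and 10.91 at 10 weeks and rose by 3.58 (adjusted p = 1.99e-06). The lactate carrier SLC16A1 fell by 1.73 and PYGL, a glycogen phosphorylase, rose by 1.62. For fatty acid and sterol genes the count was 11 higher (17.7%) and 7 lower (11.3%) of 62, against 15.5% and 15.3% of all genes. It was 22 higher without array 26B, 11 lower without array 80B and 4 lower without 10-week array 10. CH25H, which hydroxylates cholesterol in macrophages, rose by 2.06 and the fatty acid binder FABP3 by 1.95. Of 62 xenobiotic and antioxidant genes 24 were called higher (38.7%) and 8 lower, or 5 lower without 10-week array 12. CYP2B6 read 6.39, 6.70, 6.56, 6.85 and 5.85 in the fetus and 11.63, 11.37, 11.31, 10.74 and 11.18 at 10 weeks, and FMO2, the monooxygenase of lung, rose by 2.80. MT1A, a metallothionein, read 8.76, 7.87, 7.47, 13.12 and 12.40 in the fetus and 6.54, 6.96, 6.54, 7.11 and 6.27 at 10 weeks, with 26B and 80B far above the rest, and its fall was 3.24 with all arrays and 1.35 in the repeat.

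Lists of other tissues were read for RNA from outside the lung. Among 61 liver genes 21 were called lower (34.4%) and 1 higher, 20 and 7 without 26B and 80B, with 13 lower without 80B alone and 3 higher without 26B alone. The gene called higher was HP. The median change of the liver list was -1.31 with all arrays and -0.14 in the repeat. In the erythroid list 4 of 24 were called lower in both fits (16.7%). That is near the share of all genes, which was 15.3% with all arrays and 20.4% in the repeat. The median change of the erythroid list was -0.57 with all arrays and -0.09 in the repeat. None was called higher with all arrays (0 genes), 3 were in the repeat and 2 without array 26B alone. Of 10 thymus and lymph node genes 5 were called higher, the lipid-presenting CD1B at 3.13, the homing chemokines CCL19 and CCL21 at 2.38 and 1.22, the B cell receptor CR2 at 1.56 and the DNA polymerase DNTT at 0.55 (not called without fetal array 10A, 14A or 14B or without 10-week array 8, 11 or 12). CCL25 was lower, and 2 genes of the list were lower without array 26B. Of 12 kidney genes 2 were called higher (16.7%, near the 15.5% of all genes), DPEP1 and XPNPEP2 (0.92), and none lower (0 of 12). DPEP1, a membrane dipeptidase of kidney that lung capillaries also hold, read 5.68, 5.49, 5.95, 6.67 and 5.88 in the fetus and 8.89, 9.68, 9.95, 9.80 and 9.53 at 10 weeks and rose by 3.63 (adjusted p = 3.13e-08). Mesothelial genes gave 2 of 9 called lower, the keratins KRT18 (-0.82) and KRT8 (-0.67, not called without 10-week array 10), which other epithelia also make, and none higher (0 genes). They were 3 lower in the repeat, 1 lower without 10-week array 10 and 1 higher without 10-week array 12. The part of admixed liver and blood RNA, and of array 26B, in the changes given above was not tested beyond these repeats.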

How the data were processed

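Total RNA extracted with Trizol from frozen lung and kidney was made into biotin-labelled cRNA and read on bovine arrays of Affymetrix, per the labels' protocols. The deposited values are log2 levels of 24128 probe sets made by RMA, with Partek also named, per the submitters' processing notes; their versions are not given in the sources used here. The RMA method quantile normalises the arrays, so a shift of all genes cannot be seen. No batch or date is in the labels, and detection calls were not used.

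After 112 control probe sets were left out, 13318 probe sets had 1 gene symbol, 86 had several and 10724 had none in the platform annotation used, which can be old. Each of 9155 genes was read by its brightest probe set on average over the 30 arrays, and 2913 genes had several. limma 3.58.1 (R 4.3.3) was fitted with lmFit and eBayes on the 15 lung arrays with 3 ages as groups, with Benjamini-Hochberg adjustment over all genes and a threshold of 0.05. The repeat left out fetal arrays 26B and 80B. The difference between organs was fitted on all 30 arrays and their 6 groups. The fits were tested on simulated data. The number of arrays, 5 per group, limits the precision. The design text calls the arrays biological replications, and nothing else states separate animals, so p-values measure the spread between these arrays.

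The comparison and its 51 gene lists were chosen with earlier results of these data known. Genes were named by rule: the 15 largest rises and falls called in both fits with groups that did not overlap, up to 5 largest called members and 2 of smallest change per list, sets for growth and lung, and, as a description only, the 10 genes highest in 26B and 80B over the other fetal arrays. Genes named because few of their list were called fell outside the rule, and locus and clone identifiers were left unnamed. Alternatives covered the arrays, the probe set per gene, a filter on low values, normalisation, the eBayes settings, a minimum change, and leaving out each array. Figures were drawn with matplotlib 3.10.9 from tables made with pandas 2.3.3 (Python 3.11.15). Coordinates and sequences were not used here.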

Additional observations from a re-analysis of the deposited data

Results flagged for a closer look

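Among the genes named above, 1 array stood far from the other 4 of its age in 81 of 490 groups of 5 values, by the gap to its nearest neighbour relative to the range (Dixon's 95% critical value). Chance flags about 1 in 20 groups. Array 26B was the one in 55 of these. Its liver and red cell list levels were already used above to describe that array, so they are no separate support. The cause of the flags was not tested. Fetal array 26B was the highest of its group, in log2 level, for 14 genes, namely C1QA 9.69, CD8A 8.06, CDKN1A 7.28, CEBPD 10.49, CFD 10.55, CSF1R 10.49, FZD4 8.83, GHR 7.65, HBG 11.91, IL1B 8.58, NR4A1 7.07, RDH5 8.46, SLC16A1 11.80 and SNAP25 10.77. Fetal array 26B was the lowest of its group, in log2 level, for 41 genes, namely AGER 9.08, ANGPT2 6.84, AQP1 6.94, BMP5 9.41, BOLA-DQB1 7.30, CCDC39 3.90, CCL21 7.23, CHGB 3.95, CNMD 8.12, COL12A1 7.70, COL1A1 12.44, COL2A1 8.99, COL4A1 11.05, DCN 10.50, DNMT3A 11.24, DYNLRB2 7.91, EDN1 7.24, EFEMP1 9.95, FBLN1 8.21, FKBP10 8.96, ICOS 5.87, KLF4 8.23, MARCKSL1 9.78, MCAM 5.43, MDK 10.55, MEOX2 8.72, MYH11 8.50, MYH3 5.43, PECAM1 11.57, PER2 5.68, PIK3CA 8.14, PRELP 7.59, ROPN1L 5.71, SCG5 6.34, SFTPB 8.20, SFTPC 9.30, SMO 9.41, TGFB3 8.52, THBD 9.62, UCHL1 10.13 and VCAN 10.85. In 10-week array 12 the highest log2 levels of the group were EZH2 11.23, ITIH2 5.41, KRT18 9.21, MEG3 8.60, MIA 10.90 and NCAM1 5.21. Ten-week array 12 was the lowest of its group, in log2 level, for 10 genes, namely C1QA 10.14, CHGA 11.26, CXCL8 8.62, EFEMP1 12.10, HLF 11.06, IGFBP7 13.17, JCHAIN 12.04, PLN 9.43, PTGER4 8.85 and TPPP3 10.47. In 10-week array 7 the highest log2 levels of the group were ERBB3 4.88 and PLAGL1 10.96. In 10-week array 7 the lowest log2 levels of the group were CFD 12.03, IL2RG 9.50 and MFAP4 7.33. In 10-week array 11 the highest log2 levels of the group were KRT8 8.72 and PER2 7.46. In 10-week array 11 the lowest log2 levels of the group were PDGFRB 5.53. In fetal array 10A the highest log2 levels of the group were FZD10 7.94. In fetal array 80B the lowest log2 levels of the group were FBL 11.56.

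Among the growth genes compared above, the change from fetal day 90 to 10 weeks differed between lung and kidney in 6 genes. In the interaction test in limma, the lung minus kidney change was 2.11 for MEST, -1.90 for DLK1 and -1.65 for IGF2BP1. It was 1.10 for CDKN1C, 0.90 for GPC3 and -1.94 for IGFBP3. The other growth genes compared did not pass with all arrays. The share of all genes called by this test is not given here, so the count does not set growth genes apart.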

How the results depend on the processing

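The counts of 1421 genes called higher and 1399 lower stayed within 1.5 times under the other arrays, probe sets, low-value filter, normalisations and eBayes options tried. With array weights they were 2207 and 2617, and with a minimum change of 1.5-fold 447 and 181, for which 71.2% of calls were higher against 50.4%. Leaving out 1 array gave 1224 to 1652 higher and 1144 to 1821 lower. Of 232 called genes named here, 212 kept their call with each array left out and 138 in all 22 settings. The cause of the count changes was not tested. With another choice of probe set the direction turned for 6 genes. Without multi-transcript probe sets the change was 2.06 for BOLA-DQB1, 0.22 for IGF2 and 0.12 for FBLN1. With the mean of all probe sets it was -0.51 for IGF1, 0.016 for SLC9A3 and -0.0058 for RORA. Calls appeared when 1 fetal array was left out for MYH11 (-0.29) and COL1A1 (-0.51) without 26B, ELN (0.83) without 14B and IGFBP3 (-1.20) without 14A. Of 245 named genes 82 had several probe sets, and which of them reads the sheep transcript was not tested. No paired analysis was possible because the fetal and 10-week lung arrays share no replicate labels. Lung and kidney arrays of 1 age share numbers in 7 pairs, whose deviations from the group means correlated at 0.0761 to 0.25 over genes. With these numbers as a random replicate block (consensus correlation 0.218), added after seeing the data, the 6 differences between organs were called again with the same sign, and that of PLAGL1 (0.55, adjusted p = 0.0334) was called as well. The signal over background that bounds a low level was not analysed here.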
